A study of Mus musculus with 27 samples.

Results

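The enzymes of the mevalonate pathway, which lead to squalene through the isoprenoid diphosphates, were examined one gene at a time in the livers of 2-week-old mouse pups. The 8 genes listed were Acat2, Hmgcs1, Mvk, Pmvk, Mvd, Idi1, Fdps and Fdft1, and each was represented by the probe set listed with that gene alone that had the highest mean over all 27 arrays. A single-gene probe set was listed for 7 of the 8 members, of 18820 genes in all, and each of the 7 passed the filters that left 10810 genes for testing; Acat2 is not analysed here. The pups were 6 males and 6 females of dams on a Western-style diet (maternal WSD; m-WS1 to m-WS6 and f-WS1 to f-WS6) and 6 males and 9 females of dams on a low fat diet (maternal LFD; m-LF1 to m-LF6 and f-LF1 to f-LF9). All dams were C57BL/6J mice, given their semi-synthetic diet for 6 weeks before mating to males on control diet, through pregnancy and during lactation, in litters standardised after birth. The WSD carried 45% of its energy as fat, 35% as carbohydrate and 20% as protein, with 196.5 mg cholesterol per kg and 4.73 kcal per g, whereas the LFD carried 10%, 70% and 20%, with 18.0 mg cholesterol per kg and 3.85 kcal per g. Diet was thus given to the dam, and fat, carbohydrate and cholesterol differed together between the diets, so that their parts cannot be told apart.

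The pathway begins with acetyl-CoA. Acat2, a cytosolic thiolase, joins acetyl groups, Hmgcs1 makes HMG-CoA, and downstream of mevalonate the kinases Mvk and Pmvk and the decarboxylase Mvd yield isopentenyl diphosphate, the building block of all isoprenoids. Idi1 isomerises it, Fdps assembles farnesyl diphosphate, from which dolichol, ubiquinone side chains and protein prenyl groups also derive, and Fdft1 joins farnesyl units into squalene, the committed step to cholesterol. In liver, the genes of this pathway are classical targets of SREBP2, a membrane-bound transcription factor that is released when sterols in the endoplasmic reticulum run low and that acts at promoters together with NF-Y and Sp1. In bulk liver RNA, fewer cells that express a gene and less of its RNA per cell cannot be told apart.

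The promoters of 5 of the 6 members that rose in females of maternal WSD are shown because these genes moved together from pup to pup. Windows of 250 bases before to 50 bases after the RefSeq start (GRCm38.p6) were available for Hmgcs1 (chr13:119690101-119690400, + strand), Mvk (chr5:114444019-114444318, + strand), Pmvk (chr3:89454291-89454590, + strand), Mvd (chr8:122443373-122443672, - strand) and Idi1 (chr13:8885356-8885655, + strand). They are written 5′ to 3′ on the strand of the gene, with 3 motifs in capitals where they match on either strand: the sterol regulatory element core CACNCCAC, the NF-Y box CCAAT, which reads ATTGG on the other strand, and the Sp1 box GGGCGG, which reads CCGCCC on the other strand. No match overlapped another.
Hmgcs1: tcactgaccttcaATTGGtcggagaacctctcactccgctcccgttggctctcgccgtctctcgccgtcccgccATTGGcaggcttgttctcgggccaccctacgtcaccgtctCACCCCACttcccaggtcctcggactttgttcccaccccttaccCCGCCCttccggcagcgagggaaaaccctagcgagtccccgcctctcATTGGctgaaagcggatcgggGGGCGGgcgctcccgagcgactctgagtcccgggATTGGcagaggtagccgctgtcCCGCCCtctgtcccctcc
Mvk: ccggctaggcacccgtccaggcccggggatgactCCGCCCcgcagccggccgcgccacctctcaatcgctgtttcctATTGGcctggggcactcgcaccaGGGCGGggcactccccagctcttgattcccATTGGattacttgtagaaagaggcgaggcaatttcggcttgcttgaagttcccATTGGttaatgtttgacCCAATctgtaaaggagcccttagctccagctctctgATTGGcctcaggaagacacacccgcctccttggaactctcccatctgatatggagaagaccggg
Pmvk: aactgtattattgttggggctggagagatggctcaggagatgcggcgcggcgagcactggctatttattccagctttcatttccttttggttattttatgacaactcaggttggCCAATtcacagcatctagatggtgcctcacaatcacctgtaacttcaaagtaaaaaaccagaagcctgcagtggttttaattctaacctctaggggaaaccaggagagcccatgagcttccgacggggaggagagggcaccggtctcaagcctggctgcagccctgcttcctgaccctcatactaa
Mvd: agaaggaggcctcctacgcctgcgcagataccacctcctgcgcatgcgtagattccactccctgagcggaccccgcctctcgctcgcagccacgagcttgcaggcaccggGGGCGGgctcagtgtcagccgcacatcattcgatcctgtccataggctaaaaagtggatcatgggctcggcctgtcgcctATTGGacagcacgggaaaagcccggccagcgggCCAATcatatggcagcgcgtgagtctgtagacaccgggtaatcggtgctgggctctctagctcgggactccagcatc
Idi1: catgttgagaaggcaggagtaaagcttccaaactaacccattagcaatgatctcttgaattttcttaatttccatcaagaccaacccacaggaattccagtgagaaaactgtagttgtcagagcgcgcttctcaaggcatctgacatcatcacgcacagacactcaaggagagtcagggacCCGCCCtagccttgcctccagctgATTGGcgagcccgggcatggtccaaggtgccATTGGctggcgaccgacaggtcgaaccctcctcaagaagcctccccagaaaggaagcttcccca

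Each of the 5 windows printed held at least 1 NF-Y box, whereas 37.4% of the 32851 promoter windows of the same length did. Mvk had 5 NF-Y boxes and Hmgcs1 had 4, against 2 each in Mvd and Idi1 and 1 in Pmvk. In Hmgcs1 and in Idi1, 1 of the boxes lay at the same distance from the start, at -45 to -41, and Mvk and Idi1 shared a box at -14 to -10 (counted from the start as 1, with no 0). Among these 5, the sterol regulatory element core was matched in Hmgcs1 only, at -136 to -129, and it was matched in 6.24% of all windows. The window of Acat2 (chr17:12960676-12960975, - strand), whose RNA is not analysed here, held the core 2 times, at -181 to -174 and at -53 to -46, 1 Sp1 box and no NF-Y box. An Sp1 box was present in Hmgcs1 (3), Mvk (2), Mvd (1) and Idi1 (1) and in 35.7% of all windows. A second listed start of Pmvk (chr3:89459321-89459620, + strand) held none of the motifs. No window was available for Fdps or Fdft1. A match is a description of the letters in the window, and windows without one can hold sites of another spelling.

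Before the members were compared, the arrays were checked against their labels. Xist, the RNA of the inactive X chromosome, was at least 11.67 on the log2 scale in each female, and between 3.25 and 4.50 in 10 of the 12 males, but it was 7.92 in m-WS1 and 9.30 in m-LF6. Without those libraries, 0 of 7 members were called in males, as with them, and the log2 fold change upon maternal WSD in males was -0.06 for Hmgcs1, 0.07 for Mvk, 0.12 for Pmvk, -0.15 for Mvd, 0.14 for Idi1, 0.09 for Fdps and 0.10 for Fdft1. The mean of 8 hepatocyte markers, albumin and transthyretin among them, lay between 12.51 and 12.62 in m-WS, 12.46 and 12.62 in m-LF, 12.48 and 12.61 in f-WS, and 12.49 and 12.63 in f-LF. In females, 0 of 8 neutrophil and 0 of 6 B cell markers tested were called between the diets, with median log2 fold changes of 0.30 and 0.27, whereas in males 3 of 8 and 4 of 6 were higher upon maternal WSD, with medians of 0.67 and 0.78. Among markers of erythroid, Kupffer, endothelial, stellate, bile duct, acinar and fat cells, 1 erythroid marker was higher in females, and in males 2 endothelial and 2 stellate markers were lower and 1 bile duct marker was higher. The array names carry a number (39, 40 and 48 on maternal WSD, and 37, 49 and 50 on maternal LFD) that the labels do not define and that lies within 1 diet each, and a prefix (G073 or G074) that occurs in each of the 4 groups. The labels do not say which pups share a dam, so that p-values measure the spread between pups, and a shared litter was not accounted for.

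In females, 6 of the 7 measured members rose upon maternal WSD at the threshold of the study's methods (limma, p at most 0.01), and 0 fell. Over all 10810 genes tested, 3.6% were called higher and 1.59% lower in females. In males, 0 of 7 members were called in either direction, with 3.02% of all genes called higher and 2.6% lower. The median log2 fold change of the 7 members was 0.37 in females and 0.08 in males, beside 0.01 over all genes tested in each sex. After Benjamini-Hochberg adjustment over all genes, none of the 7 members passed an adjusted p of 0.05 in females, where 0.305% of genes did, or in males, where 0.731% did. Unadjusted, 0 of 7 members had a p under 0.05 in males by limma or by the exact permutation test, whereas in females 6 of 7 did by limma and 7 of 7 by the exact permutation test, which put 2 of them at 0.01 or less.

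**Figure D1:**
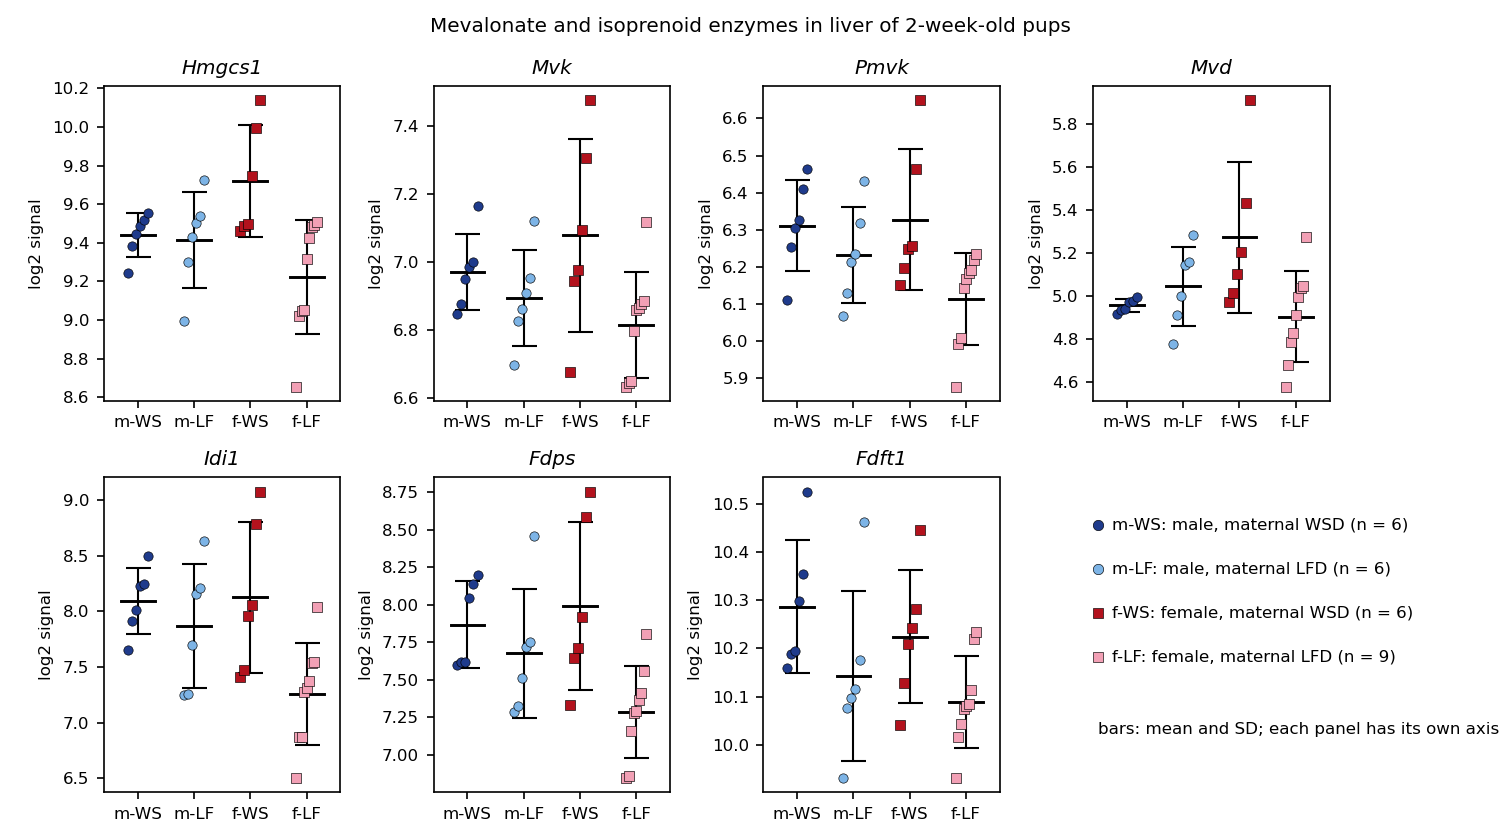
Log2 signal of the 7 measured enzymes in each pup, 1 panel per gene with its own vertical axis. Points are pups, ordered by value within a group, in males of maternal WSD (m-WS) and LFD (m-LF) and females of maternal WSD (f-WS) and LFD (f-LF), with the mean and SD as bars. The highest f-WS point is f-WS3 in each panel and the highest f-LF point is f-LF9.

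Hmgcs1, the cytosolic HMG-CoA synthase that stands at the entry of the pathway, had the smallest limma p of the 7 in females. Its log2 signal had a lowest value of 9.46, a median of 9.62 and a highest value of 10.14 in f-WS, against 8.66, 9.32 and 9.51 in f-LF. The groups overlapped, with 3 of 6 f-WS pups above the highest f-LF pup and 6 of 6 above the f-LF mean. The difference was a 1.41-fold increase (log2 fold change 0.50, SE 0.12, limma p = 0.000339, adjusted p = 0.0664), and the exact permutation test over the 15 females gave p = 0.00639, two-sided. In males, Hmgcs1 had a lowest value of 9.24, a median of 9.47 and a highest value of 9.56 in m-WS, against 8.998, 9.47 and 9.73 in m-LF, so that the values of m-WS lay within the range of m-LF. The log2 fold change in males was 0.02, with a 95% interval of -0.25 to 0.30 (exact permutation p = 0.861, two-sided), and its sign was not stable, with -0.06 without m-WS1 and m-LF6.

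The kinases Mvk and Pmvk, which place the first and the second phosphate on mevalonate, rose by smaller amounts in females. Mvk had a lowest value of 6.67, a median of 7.03 and a highest value of 7.48 in f-WS, against 6.63, 6.86 and 7.12 in f-LF. This was a 1.20-fold increase (log2 fold change 0.26, SE 0.09, limma p = 0.00699, adjusted p = 0.172; exact permutation p = 0.0354, two-sided) between overlapping groups, with 2 of 6 f-WS pups, f-WS3 and f-WS4, above the highest f-LF pup. Pmvk had a lowest value of 6.15, a median of 6.25 and a highest value of 6.65 in f-WS, against 5.88, 6.17 and 6.24 in f-LF. It was 1.16-fold higher (log2 fold change 0.21, SE 0.07, limma p = 0.00738, adjusted p = 0.173; exact permutation p = 0.0124, two-sided), and 4 of 6 f-WS pups exceeded each f-LF pup. In males, the log2 fold change was 0.08 for Mvk (95% interval -0.13 to 0.28) and 0.08 for Pmvk (95% interval -0.09 to 0.25).

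The promoter window of Mvk overlaps that of Mmab (chr5:114443978-114444277, - strand), which codes for a cobalamin adenosyltransferase and lies head to head with it. Mmab averaged 7.25 ± 0.27 in f-WS (SD, n = 6) and 7.02 ± 0.24 in f-LF (SD, n = 9), a log2 fold change of 0.23 (SE 0.10, adjusted p = 0.291 by limma) that did not pass the threshold. The same pups stood at the ends of both genes in females, with f-WS3 highest and f-WS2 lowest in f-WS, and f-LF9 highest and f-LF4 lowest in f-LF. Mmab was chosen for its position next to Mvk after its values had been seen.

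Mvd, the decarboxylase that ends the mevalonate branch, rose in females and was the only member whose response differed between the sexes at the threshold. Its log2 signal had a lowest value of 4.97, a median of 5.15 and a highest value of 5.91 in f-WS, against 4.58, 4.91 and 5.28 in f-LF. The females thus differed 1.29-fold (log2 fold change 0.37, SE 0.11, limma p = 0.00258, adjusted p = 0.122; exact permutation p = 0.0168, two-sided), with 6 of 6 f-WS pups above the f-LF mean. In males, Mvd had a lowest value of 4.92, a median of 4.95 and a highest value of 5.00 in m-WS, against 4.78, 5.07 and 5.28 in m-LF. The 6 m-WS pups were close together (SD 0.03, against 0.18 in m-LF) and each lay below the m-LF mean, with a log2 fold change of -0.09 (95% interval -0.34 to 0.16, exact permutation p = 0.266, two-sided). The response in males minus that in females was -0.46 (SE 0.17, adjusted p = 0.393 by limma), where 2.5% of all genes were called for this difference in either direction. Its unadjusted p lay just under the threshold, and under 31 of 48 other settings of the analysis Mvd was not called for this difference. The values of Mvd were low on these arrays, near the intensity of 20 (4.32 on the log2 scale) used as a filter.

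Idi1, which interconverts isopentenyl and dimethylallyl diphosphate, had the largest log2 fold change of the 7 in females. Its log2 signal had a lowest value of 7.41, a median of 8.01 and a highest value of 9.08 in f-WS, against 6.50, 7.31 and 8.04 in f-LF. The increase was 1.83-fold (log2 fold change 0.87, SE 0.24, limma p = 0.00125, adjusted p = 0.1; exact permutation p = 0.0114, two-sided), and 3 of 6 f-WS pups exceeded the highest f-LF pup. In males, Idi1 had a lowest value of 7.65, a median of 8.12 and a highest value of 8.50 in m-WS, against 7.25, 7.93 and 8.64 in m-LF. The log2 fold change of 0.22 in males had a 95% interval of -0.32 to 0.77 (exact permutation p = 0.394, two-sided). A second probe set listed with Idi1 gave a log2 fold change of 0.85 in females (adjusted p = 0.111 by limma) and 0.21 in males (adjusted p = 0.801). Of the 20 single-gene probe sets nearest in identifier order, 18 belonged to genes of chromosome 13, where Idi1 lies, for this second probe set, and 18 to genes of chromosome 2 for the probe set used.

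Fdps, the farnesyl diphosphate synthase, followed Idi1 closely. It had a lowest value of 7.33, a median of 7.81 and a highest value of 8.75 in f-WS, against 6.85, 7.30 and 7.80 in f-LF. This was a 1.63-fold increase (log2 fold change 0.70, SE 0.19, limma p = 0.000918, adjusted p = 0.0914; exact permutation p = 0.00519, two-sided), with 6 of 6 f-WS pups above the f-LF mean and 3 of 6 above the highest f-LF pup. In males, Fdps had a lowest value of 7.60, a median of 7.83 and a highest value of 8.20 in m-WS, against 7.29, 7.61 and 8.46 in m-LF. The log2 fold change was 0.19 (95% interval -0.23 to 0.62, exact permutation p = 0.39, two-sided), and the highest of the 12 males was m-LF5, a pup of maternal LFD.

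Fdft1, the squalene synthase, had the same log2 fold change in both sexes to 2 decimals and passed the threshold in neither. It had a lowest value of 10.16, a median of 10.25 and a highest value of 10.52 in m-WS, against 9.93, 10.11 and 10.46 in m-LF. The corresponding values were 10.04, 10.23 and 10.45 in f-WS, against 9.93, 10.08 and 10.23 in f-LF. The log2 fold change was 0.14 in males (SE 0.07, exact permutation p = 0.156) and 0.14 in females (SE 0.07, exact permutation p = 0.0358, both two-sided; adjusted p = 0.392 and 0.358 by limma), and the groups overlapped in both sexes. The difference between the sexes was 0.01 (SE 0.10). Without m-LF5, the m-LF pup with the highest value, Fdft1 was called in males.

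**Figure D2:**
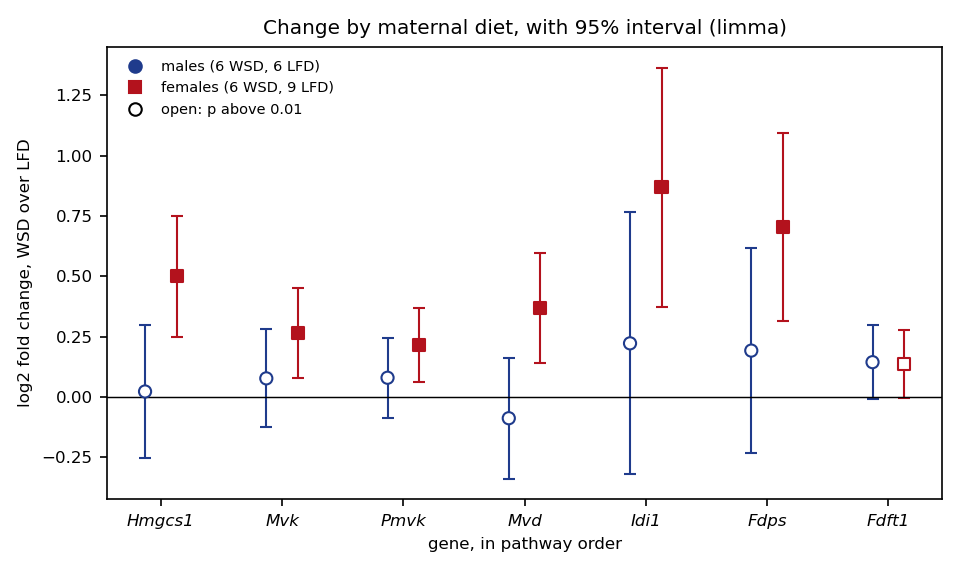
Log2 fold change of each enzyme upon maternal WSD relative to maternal LFD, in pathway order, with its 95% interval from limma. Circles are males (6 WSD, 6 LFD), squares are females (6 WSD, 9 LFD), and open symbols have a p above 0.01; 6 of 7 squares are filled and the male intervals all include 0.

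The other differences between the sexes in response did not pass the threshold. Males minus females, the difference in log2 fold change was -0.48 for Hmgcs1 (SE 0.18, adjusted p = 0.409 by limma), -0.65 for Idi1 (SE 0.36), -0.51 for Fdps (SE 0.28), -0.19 for Mvk (SE 0.13) and -0.14 for Pmvk (SE 0.11). For these 5 genes a larger response in females was therefore not shown. Without m-WS1 and m-LF6, the males whose Xist went against the label, Hmgcs1 was called for this difference beside Mvd.

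Males and females were also compared on each maternal diet. On maternal LFD, the 7 log2 differences of males over females were all positive, between 0.05 for Fdft1 and 0.61 for Idi1. Idi1 averaged 7.87 ± 0.56 in m-LF (SD, n = 6) and 7.26 ± 0.46 in f-LF (SD, n = 9), a difference with an adjusted p = 0.74 by limma. For Fdps the difference was 0.39 (SE 0.19, adjusted p = 0.752 by limma), from 7.68 ± 0.43 in m-LF and 7.29 ± 0.31 in f-LF. None of the 7 was called on maternal LFD, where 1.37% of all genes were (1 had an unadjusted p under 0.05), and without m-WS1 and m-LF6 Idi1 was (log2 difference 0.73). On maternal WSD, none of the 7 was called either, where 3.35% of all genes were (2 had an unadjusted p under 0.05), and the log2 differences of males over females lay between -0.32 for Mvd (SE 0.12, adjusted p = 0.319 by limma) and 0.06 for Fdft1. These comparisons share samples with the comparisons of diet and add no independent measurement.

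Pup by pup, the rise in females was uneven. The mean deviation of the 7 members from the f-LF mean was 0.97 in f-WS3 and 0.71 in f-WS4 on the log2 scale, 0.32 in f-WS5 and 0.34 in f-WS6, and 0.18 in f-WS1 and 0.11 in f-WS2. These pairs of pups carried the numbers 40, 48 and 39 in their array names. Each of the 6 was above 0, and the 9 f-LF pups lay between -0.34 and 0.36, with f-LF9 at the top. The largest single deviation was that of Idi1 in f-WS3, at 1.82, followed by 1.53 in f-WS4. Among males, the mean deviation from the m-LF mean lay between 0.0048 and 0.20 in m-WS and between -0.26 and 0.41 in m-LF. The males of number 40, m-WS1 and m-WS2, had 0.10 and 0.19, below both females of that number, and the highest mean deviation in m-WS was 0.20, in m-WS6 of number 48. For Fdft1, m-WS1 had the highest value of m-WS (10.52).

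**Figure D3:**
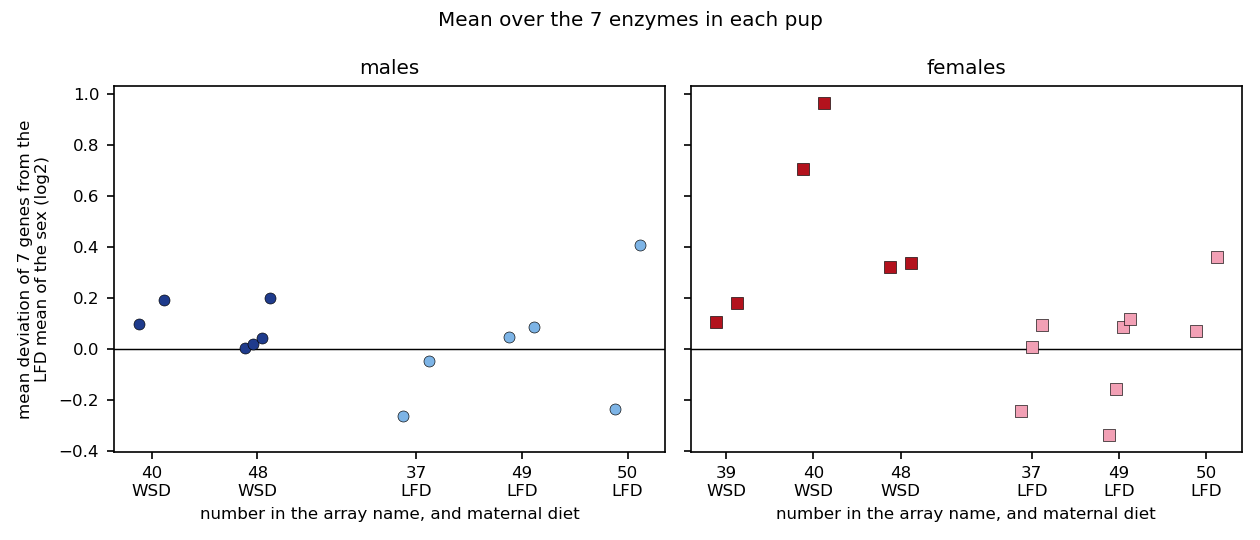
Mean deviation of the 7 enzymes in each pup from the LFD mean of its sex, in log2 units, by the number in the array name and the maternal diet, for males (left) and females (right). The points highest on the vertical axis are the females of number 40, f-WS4 and f-WS3, at 0.71 and 0.97.

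In 3 of the 4 groups, the same pup had the highest value for each member. In f-WS, f-WS3 was the highest pup for 7 of 7 members, in f-LF it was f-LF9 for 7 of 7, and in m-LF it was m-LF5 for 7 of 7. In m-WS no such pup was found, and 4 pups shared the highest place, with m-WS6 holding it for 3 members. The lowest place in m-LF was held by m-LF2 for 5 of 7 members and by m-LF6 for the other 2. The lowest places were spread over 3 pups in f-WS (f-WS2 for 4 members, f-WS1 for 2 and f-WS5 for 1), 4 pups in f-LF (f-LF5 for 3, f-LF1 for 2, f-LF4 and f-LF7 for 1 each) and 4 pups in m-WS. Both f-LF9 and m-LF5 carried the number 50, and the other pups of that number, f-LF8 and m-LF6, had mean deviations of 0.07 and -0.24.

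Markers of neutrophils and their precursors varied among some of the same pups. In f-WS, f-WS3 was highest for 5 of the 8 markers and f-WS2 lowest for 7 of 8, and the mean of the 8 was 6.62 in f-WS3 and 5.63 in f-WS2, the ends of the range in f-WS, against 5.57 to 6.86 in f-LF, where f-LF8 was highest. In m-LF, m-LF5 was highest for 8 of 8 markers, and the mean was 6.71 in m-LF5 and lowest, at 5.26, in m-LF2, the pup that was lowest for 5 of 7 members. Other pups went differently. In f-LF8, the mean deviation of the members was 0.07, below that of f-LF9 (0.36). In m-LF6, the mean of the neutrophil markers was 6.35, next below m-LF5, while the mean deviation of the members was -0.24. The mean of 7 B cell markers was highest in f-WS1 (6.84) in f-WS and lowest in m-LF5 (5.23) in m-LF. The part of these cells in the values of the members was not tested.

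The calls in females depended on the pups of number 40. Without them, 0 of 7 members were called, although all 7 log2 fold changes stayed positive, between 0.07 for Fdft1 and 0.47 for Idi1, and Hmgcs1 had a log2 fold change of 0.33. Leaving out f-WS3 alone kept Hmgcs1, Idi1 and Fdps, with log2 fold changes of 0.42, 0.68 and 0.55. Leaving out the LFD pups of number 49 kept Hmgcs1 alone, and leaving out those of number 37 kept Hmgcs1, Idi1 and Fdps. With the number as a random block, 4 members were called (Hmgcs1, Mvd, Idi1 and Fdps). With the arrays of 1 number averaged within each sex, Hmgcs1 alone was called. Within the prefix G073 the 7 log2 fold changes in females lay between 0.11 and 0.83 with 2 called (Idi1 and Fdps), and within G074 between 0.18 and 0.97 with 1 called (Hmgcs1). In males they lay between -0.20 and 0.12 within G073 and between 0.12 and 0.88 within G074, with 0 called in either, and 6 of 7 were below 0 within G073 while 7 of 7 were above 0 within G074. These comparisons hold few pups. Within G074, the only m-LF pups were m-LF2 and m-LF6, with mean deviations of -0.26 and -0.24, and the only f-WS pups were f-WS2 and f-WS3.

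The members also varied together within the groups. After the mean of its group was taken from each pup, the 21 pairs of members correlated with Pearson's r between 0.33 and 0.91 over the 27 pups, with a median of 0.67. The closest pair was Idi1 and Fdps (0.91), followed by Mvk and Fdps (0.90), while Hmgcs1 and Fdft1 were the least alike (0.33). These values are descriptions, since pups of 1 group may share a dam and all genes of a pup share an array. The genes outside the 7 whose deviations were most like the mean of the members were Cyp51 (r = 0.95), Msmo1 (r = 0.94), Sqle (r = 0.93), Nsdhl (r = 0.89) and Tm7sf2 (r = 0.87). All of these code for enzymes of the later steps between squalene and cholesterol. Over the 10803 genes compared, the median r was -0.02 and the highest 1% began at 0.53.

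**Figure D4:**
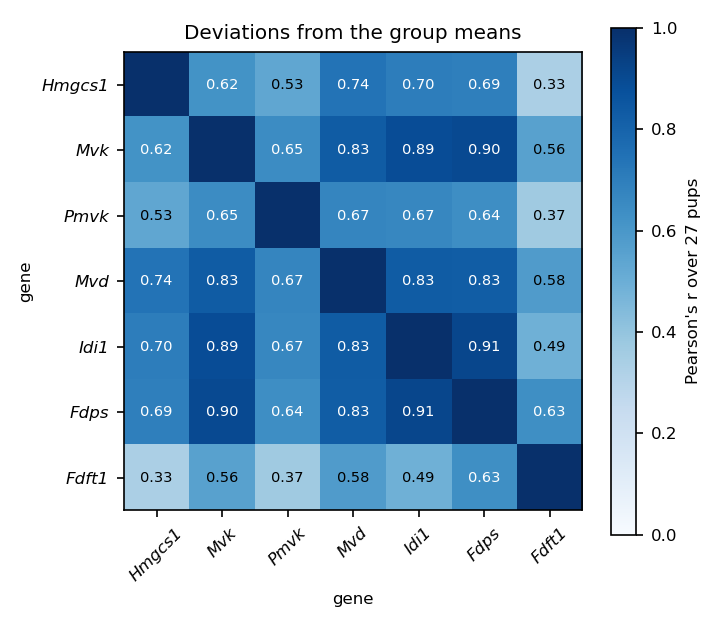
Pearson's r over 27 pups between the deviations of each pair of enzymes from their group means, from 0.33 (palest, Hmgcs1 and Fdft1) to 0.91 (Idi1 and Fdps). The diagonal is each gene with itself, and genes run in pathway order on both axes.

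Beyond the members, 5 of 10 later enzymes from squalene to cholesterol rose in females and 0 fell, with a median log2 fold change of 0.41. They were Sqle, the squalene epoxidase (1.31, SE 0.33, adjusted p = 0.0712 by limma), Lss, the lanosterol synthase (0.48), and Cyp51, the lanosterol demethylase (0.81). The others were Msmo1, the sterol methyl oxidase (0.76), and Nsdhl, a sterol dehydrogenase (0.62). The highest f-WS pup was f-WS3 for Sqle, Lss, Cyp51 and Msmo1, and f-WS4 for Nsdhl, both of number 40. For Sqle, the 2 highest f-WS values were 7.98 and 7.82, against a median of 6.22. Calls of these 5 enzymes were not examined without the pups of number 40. Sqle, Cyp51, Msmo1 and Nsdhl were also among the genes most like the members. In males, 1 of 10 rose, the desaturase gene Sc5d (0.16, SE 0.05, adjusted p = 0.158 by limma), and the median was 0.08. Sc5d changed by a similar amount in females (0.13, SE 0.05), and the difference between the sexes was 0.03 (SE 0.07). For Cyp51 the log2 fold change in males minus that in females was -0.92 (SE 0.33, adjusted p = 0.393). Of 4 genes tested that are linked to SREBP2 control, Srebf2, which codes for SREBP2 itself, rose in females (0.25, SE 0.08, adjusted p = 0.164 by limma). None of the 4 was called in males, where Insig1, the sterol-sensing retention protein, had the lowest p (0.53, SE 0.23, adjusted p = 0.259 by limma). Of all genes tested, 3.6% were called higher in females and 3.02% in males.

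The branches that draw on the isoprenoid diphosphates gave 1 call. Of 13 genes tested for prenyl transfer, dolichol, ubiquinone and haem A synthesis, 1 rose in females, Pdss2, a subunit of the synthase of the ubiquinone side chain (0.16, SE 0.05, adjusted p = 0.162), and none fell. Pdss2 also had the lowest p of this list in males (0.10, SE 0.06, adjusted p = 0.437), where 0 of 13 were called. The median log2 fold change of the list was 0.08 in females and -0.0034 in males. Among all genes tested, 3.6% were called higher in females and 3.02% in males. Of the mitochondrial genes of ketone body metabolism, which share substrates with the start of the pathway, Bdh1 alone was tested and was not called in males (-0.13, adjusted p = 0.257) or in females (0.07, adjusted p = 0.605).

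Lists of neighbouring lipid pathways gave 3 calls each. Of 12 SREBP1-linked genes of fatty acid synthesis, the desaturases Fads1 (0.18, SE 0.04) and Fads2 (0.13, SE 0.04) rose in females, and Acacb, an acetyl-CoA carboxylase, fell in males (-0.26, SE 0.10). Of 6 LXR targets and genes of sterol efflux, the transporter genes Abcg5 (0.40, SE 0.12) and Abcg8 (0.27, SE 0.09) rose in males, whereas Abcg8 fell in females (-0.24, SE 0.08). These changes had adjusted p-values between 0.0662 and 0.177 over all genes by limma. The shares of all genes tested that were called were 3.6% higher and 1.59% lower in females, and 3.02% and 2.6% in males.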

How the data were processed

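Each of the 27 pups gave 1 liver RNA sample and 1 Affymetrix Mouse Gene ST array. The deposited values are log2 intensities per probe set, which the authors computed with RMA (background correction, quantile normalisation and summarisation over all arrays), so that levels are relative within an array and a change in the total RNA of a cell is not seen. That they are on a log2 scale was read off the values; which RMA version was used is not given in the sources used here. Probe sets are those of the manufacturer (35556), while the methods mention a redefinition by Entrez gene. A single gene was listed for 21218 of them, and taking the probe set of highest mean for each gene gave 18820 genes.

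Filters named in the methods, on intensity (20 or more, on 4 or more arrays) and on the interquartile range (0.1 or more), left 10810 genes. A model with a mean per group and an intensity trend in the prior variance was fitted with limma 3.58.1 in R 4.3.3, and stands in for the intensity-based moderated statistic of the methods. Genes were called at p at most 0.01, the threshold of the methods, and Benjamini-Hochberg adjustment ran over all 10810. The fit was tested on simulated data in which pups varied independently, so that this test cannot show what a shared litter would do. Single members were also compared by exact permutation tests over the pups of a sex. The number of arrays limits the precision.

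The members and all gene lists were chosen with earlier results of these data known. All members were named, together with those genes of each other pathway list called in either sex or lowest in p in each sex, and the 5 genes most like the members. Promoters came from RefSeq (GRCm38.p6). Replicate numbers of the titles did not pair the pups. Alternatives were other filters, prior variances and normalisations, array weights, each sex alone, the number, prefix and replicate number as blocks, other probe sets, an adjusted threshold, and leaving out each number, each pup, and m-WS1 with m-LF6. Plots were made with Python 3.11.15 and matplotlib 3.10.9.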

Additional observations from a re-analysis of the deposited data

Results flagged for a closer look

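Mvd was the only member whose response to maternal WSD differed between males and females at p at most 0.01. The log2 fold change in males minus that in females was -0.46 (SE 0.17, adjusted p = 0.393 by limma). In males it was -0.09, with 6 of 6 m-WS pups below the m-LF mean, and in females 0.37, with 6 of 6 f-WS pups above the f-LF mean. The m-WS values (4.92 to 5.00) lay within the range of m-LF (4.78 to 5.28), near the intensity filter. Mvd was not called for the difference between the sexes under 31 of 48 other settings, and 2.5% of all genes were called for it.

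The gap between the outermost pup and the next, over the range of the group, marked no pup in 28 groups (7 members in 4 groups). Chance alone would mark 1.4. This rule can miss 2 outer pups that lie close together. For Idi1, f-WS3 and f-WS4 had 9.08 and 8.79, against 7.41 to 8.06 in the other f-WS pups.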

How the results depend on the processing

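Over 50 or 51 alternatives per member, the 7 log2 fold changes in females kept their sign throughout. Many of these alternatives could not move a fold change in females, since they left out males only. Others changed only the filter, the prior variance or the test, and left the fold change as it was. Such settings are included in the counts that follow. Hmgcs1 stayed at p at most 0.01 in 48 of 50, Idi1 in 46 of 51, Fdps in 46 of 50, Mvd in 41, Pmvk in 33 and Mvk in 32. The main count of 6 members called in females became 3 with each sex fitted alone and 1 with the arrays of a number averaged within each sex. It was 3 without number 37, 0 without number 40 and 1 without number 49. The count was 2 within prefix G073, 1 within G074 and 0 at an adjusted p under 0.05. It became 7 without number 50 (Fdft1 added), and 4 with centred medians, with repeated quantile normalisation, with the number as a random block and without number 48. Leaving out single pups gave 3 to 6, the lowest without f-WS3. In males the count of 0 became 1 (Fdft1) without number 50, and 0 to 1 over single pups.

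Among all genes, the 608 calls in males became 242 with numbers averaged, 400 without number 37, 324 without 48, 349 without 49, 965 without 50, 377 within G073, 74 within G074 and 79 at the adjusted threshold. The 561 calls in females became 175 with numbers averaged, 326 without number 40, 169 without 49, 199 within G073, 208 within G074 and 33 at the adjusted threshold. Some of these settings hold fewer pups.

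For the difference between the sexes, the 1 member called (Mvd) became 0 with the intensity filter only, the loess prior, centred medians, repeated quantile normalisation, averaged numbers, the prefix as a block, within either prefix, without number 37, 40, 48 or 49, and at the adjusted threshold, and 2 without number 39 or 50 and without m-LF6 and m-WS1. Single pups left out gave 0 to 2. Between males and females on LFD, 0 became 1 without number 39, 40 or 50, within G073 and without m-LF6 and m-WS1, and 0 to 1 over single pups. On WSD, 0 became 1 with array weights, without number 39 or 50 and within G074, and 0 to 1 over single pups.

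Signs turned only in changes that had not been called. In males the Hmgcs1 change was -0.0049 without number 50, -0.15 within G073, -0.063 without m-LF6 and m-WS1, and -0.062 to 0.084 over single pups left out. Within G073 the male changes were -0.0092 for Mvk, -0.049 for Pmvk, -0.13 for Idi1 and -0.11 for Fdps, and within G074 0.12 for Mvd. The Fdft1 difference between the sexes was -0.00039 with array weights, -0.053 without number 37, -0.042 without 39 and -0.033 without m-LF6 and m-WS1. Over single pups left out it lay between -0.0398 and 0.0716. Males over females on LFD, within G074, gave -0.054 for Hmgcs1, -0.015 for Mvk, -0.0704 for Mvd, -0.053 for Idi1, -0.033 for Fdps and -0.013 for Fdft1, and Fdft1 lay between -0.0094 (without m-LF5) and 0.0968 over single pups left out. The cause was not tested.

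The replicate numbers of the titles gave no sign of pairing: deviations of pups with the same number in different groups had a median r of 0.024 (other numbers -0.0078), and 4 of 27 pups correlated best with their own number. With the replicate block, 6 members were called in females, 0 in males, 2 for the difference between the sexes and 1 between the sexes on LFD. The Fdft1 difference was then -0.012. For the number in the array name, deviations of pups with the same number had a median r of 0.023, against -0.043 for other numbers. Of the 27 pups, 7 correlated best with a pup of their own array name number. The random block gave a correlation of 0.089 within that number.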
